A study of Mus musculus with 18 samples.

Results

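The 10 genes described here are used to tell the subsets of conventional dendritic cells (cDCs) apart, and they were chosen by name: Xcr1, Clec9a, Batf3, Irf8, Zbtb46, Flt3, Cd209a, Sirpa, Cd207 and Epcam. All 10 were found among the 49585 genes of the count table, and their levels were followed in 18 RNA-seq libraries that fall into 6 groups of 3. The libraries came from mice of the Kaede strain, whose photoconvertible fluorescent protein turns from green to red under light, so that red cells in a lymph node (LN) are cells that had left the illuminated tissue. Viable CD45+ Kaede red+ leukocytes were sorted from an inflamed site (nonmigrated) or from its draining LN (migrated), and each replicate was a pool of male and female mice.

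All inflamed groups came from mice that received OVA-specific CD4+ T cells of OT-II CD45.1 donors, polarized to Th1 in culture, and were then immunized with ovalbumin (OVA) in Complete Freund's Adjuvant. Joint nonmigrated and joint migrated cells came from mice challenged in the footpad with heat-aggregated OVA (HAO), from the joint and the popliteal LN respectively. Skin nonmigrated and skin migrated cells came from mice challenged with HAO in the ear pinna, from the ear and its draining LN. The joint and skin steady state groups held node cells only: the titles name PBS_KG for the joint and naive for the skin, and the labels call these cells migrated as well. The protocol shared by all samples gives Kaede red+ as the gate, but the labels do not explain KG and do not describe the sort of the steady state cells separately, so that they came from the tissue rests on the labels alone. PBS was the control challenge of the same protocol, while the labels do not say whether the naive mice received T cells or immunization. The labels give no steady state sample of the tissues themselves, and no age. The sort gated on CD45 and not on a dendritic cell marker, so every library is a mixture of leukocytes, and fewer cells of a type and less RNA per cell cannot be told apart.

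cDCs arise from FLT3+ precursors and carry antigen from tissue to the T cell zone of the draining node, moving through lymph by way of CCR7. The cDC1 subset depends on the transcription factors IRF8 and BATF3, bears the chemokine receptor XCR1 and the dead-cell receptor CLEC9A, and is known for cross-presentation to CD8+ T cells. The cDC2 subset bears SIRPα and is known for priming CD4+ T cells, while Langerhans cells of the epidermis bear langerin (Cd207) and the adhesion molecule EpCAM. Several of these genes are also used outside cDCs: Irf8 by B cells and macrophages, Sirpa by macrophages and neutrophils, Epcam by epithelial cells and Cd209a by monocyte-derived cells.

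All levels are in CPM, read counts divided by the library total after scaling over the 18 libraries. Fold changes are on the log2 scale from edgeR's quasi-likelihood F test over all genes, and a gene passed when its p, adjusted by Benjamini-Hochberg, was under 0.001 and its log2 fold change was beyond 1. "Rose", "fell", "higher" and "lower" after a test refer to that threshold. Assigned counts ran from 35554698 to 43814403 in the inflamed joint libraries and from 19239531 to 22528895 in the inflamed skin libraries, with 28577566 to 42938378 in the steady state libraries. Inflamed skin libraries also had a smaller share of reads outside genes (0.0925% to 0.135%, against 0.227% to 0.562% in the other 12), so site and these library differences, whose origin the labels do not give, cannot be told apart where inflamed skin is compared with another site or with its steady state. Skin nonmigrated replicate 3 stood apart from replicates 1 and 2 in several genes below, and results that rest on it are given with and without it.

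The upstream windows of 4 genes are shown: a pair of genes that rose in migrated cells from both sites (Zbtb46, Flt3), the receptor that names cDC1 (Xcr1) and the 1 member that passed the test between the inflamed tissues (Cd207). Each is the 250 bases before the start of the gene in RefSeq (GRCm38.p6), written 5′ to 3′ on the gene's strand, with matches to the searched motifs in capitals.
Zbtb46, chr2:181424389-181424638, minus strand: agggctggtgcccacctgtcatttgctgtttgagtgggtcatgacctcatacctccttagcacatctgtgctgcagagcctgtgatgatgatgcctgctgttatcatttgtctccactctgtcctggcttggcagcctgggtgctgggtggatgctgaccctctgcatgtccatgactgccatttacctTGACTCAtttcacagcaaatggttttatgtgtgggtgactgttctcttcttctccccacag
Flt3, chr5:147400490-147400739, minus strand: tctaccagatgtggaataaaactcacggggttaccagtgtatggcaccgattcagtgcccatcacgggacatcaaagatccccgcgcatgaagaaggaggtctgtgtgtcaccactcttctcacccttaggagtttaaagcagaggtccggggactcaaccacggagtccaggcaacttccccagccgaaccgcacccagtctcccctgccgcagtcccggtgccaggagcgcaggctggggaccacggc
Xcr1, chr9:123862030-123862279, minus strand: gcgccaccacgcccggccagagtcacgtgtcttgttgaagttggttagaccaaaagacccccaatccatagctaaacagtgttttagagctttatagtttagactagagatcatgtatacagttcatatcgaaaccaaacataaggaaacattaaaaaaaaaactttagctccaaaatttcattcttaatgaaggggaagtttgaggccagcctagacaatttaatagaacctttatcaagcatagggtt
Cd207, chr6:83677858-83678107, minus strand: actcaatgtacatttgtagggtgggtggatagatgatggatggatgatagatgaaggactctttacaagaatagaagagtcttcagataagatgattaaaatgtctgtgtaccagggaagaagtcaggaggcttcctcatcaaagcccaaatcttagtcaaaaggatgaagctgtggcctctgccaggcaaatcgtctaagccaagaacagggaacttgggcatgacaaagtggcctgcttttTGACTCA
The motifs, searched on both strands, were TGANTCA, the site of AP-1 and BATF dimers, and the cores GAAANNGAA and GGAANNGAA of IRF and ETS-IRF sites, of which the last 2 can overlap. Of 32851 RefSeq windows of the same length, 6.75% held the first, 7.13% the second and 6.99% the third. Of the 9 members with an entry (Sirpa has none), Zbtb46 and Cd207 each held 1 TGANTCA match, beginning 61 and 7 bases before the start, and Cd209a held 1 GGAANNGAA match. No match was found in the windows of the other 6 members, Batf3, Irf8, Flt3, Clec9a, Xcr1 and Epcam. GENCODE M21 annotates a farther start for Zbtb46, so that its window lies in an intron there, and places an antisense gene, Gm26597, over the Flt3 window. These matches are a description of the letters and no binding was measured.

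In GENCODE M21 (GRCm38) Xcr1 spans chr9:123852315-123862029, Batf3 chr1:191097847-191108945, Zbtb46 chr2:181387762-181459426 and Flt3 chr5:147330741-147400489. Cd207 (chr6:83671215-83677857) and Clec9a (chr6:129408862-129424763) share a chromosome, as do Cd209a (chr8:3743397-3748984) with Irf8 (chr8:120736358-120756694) and Sirpa (chr2:129592835-129632228) with Zbtb46. Epcam spans chr17:87635979-87651129. Counts were made over exons of all 10, and 184 exonic bases of Clec9a are shared with Clec1b on the same strand, where reads could be discarded as ambiguous.

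The cDC1 receptors Xcr1 and Clec9a were low and were highest in inflamed skin. Xcr1, the receptor for the chemokine XCL1, was at 9.48, 9.64 and 19.75 CPM in the 3 skin nonmigrated libraries and at 4.05, 4.82 and 3.76 CPM in the joint nonmigrated libraries. Migrated cells had 4.00, 7.05 and 8.29 CPM from the joint and 6.003, 4.79 and 3.86 CPM from the skin, and all 6 steady state libraries lay between 1.70 and 2.47 CPM. In order of mean, skin nonmigrated stood above joint migrated without overlap, joint migrated, skin migrated and joint nonmigrated overlapped in turn, and both steady state groups lay below them and overlapped each other.

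Clec9a, which senses exposed actin filaments of dead cells, was at 6.60, 7.71 and 12.4 CPM in skin nonmigrated cells and at 3.36, 4.85 and 4.69 CPM in joint nonmigrated cells. It was at 1.97, 4.39 and 6.17 CPM in joint migrated cells, but at 1.86, 2.60 and 2.04 CPM in skin migrated cells, within reach of the 1.88 to 2.23 CPM of the skin steady state. The joint steady state was lowest, at 0.643 to 0.957 CPM, and did not overlap the skin steady state. The within-library ratio of Clec9a to Xcr1 counts was 0.282 to 0.488 in the joint steady state and 0.890 to 1.22 in the skin steady state, and 0.310 to 0.744 in the 6 migrated libraries. The pair therefore did not keep a single proportion across groups.

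Batf3, the AP-1 family factor that cDC1 development requires, had a different pattern from the receptors. It was at 29.5, 59.3 and 58.9 CPM in joint migrated cells and at 55.6, 77.5 and 65.2 CPM in skin migrated cells. Nonmigrated cells had 15.4, 14.2 and 9.56 CPM in the joint and 9.30, 13.7 and 15.1 CPM in the skin, and no steady state library exceeded 0.493 CPM. Both migrated groups overlapped each other, as did both nonmigrated groups, and the 3 tiers did not overlap.

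Irf8, the interferon regulatory factor that specifies cDC1, was the flattest member. Its group means ran only from 191 ± 32.2 CPM (SD, n = 3) in the skin steady state to 406 ± 65.8 CPM (SD, n = 3) in skin nonmigrated cells. Skin nonmigrated cells (362, 482 and 375 CPM) did not overlap the next group, skin migrated cells (240, 346 and 315 CPM), and every later pair of neighbours in the order overlapped.

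**Figure D1:**
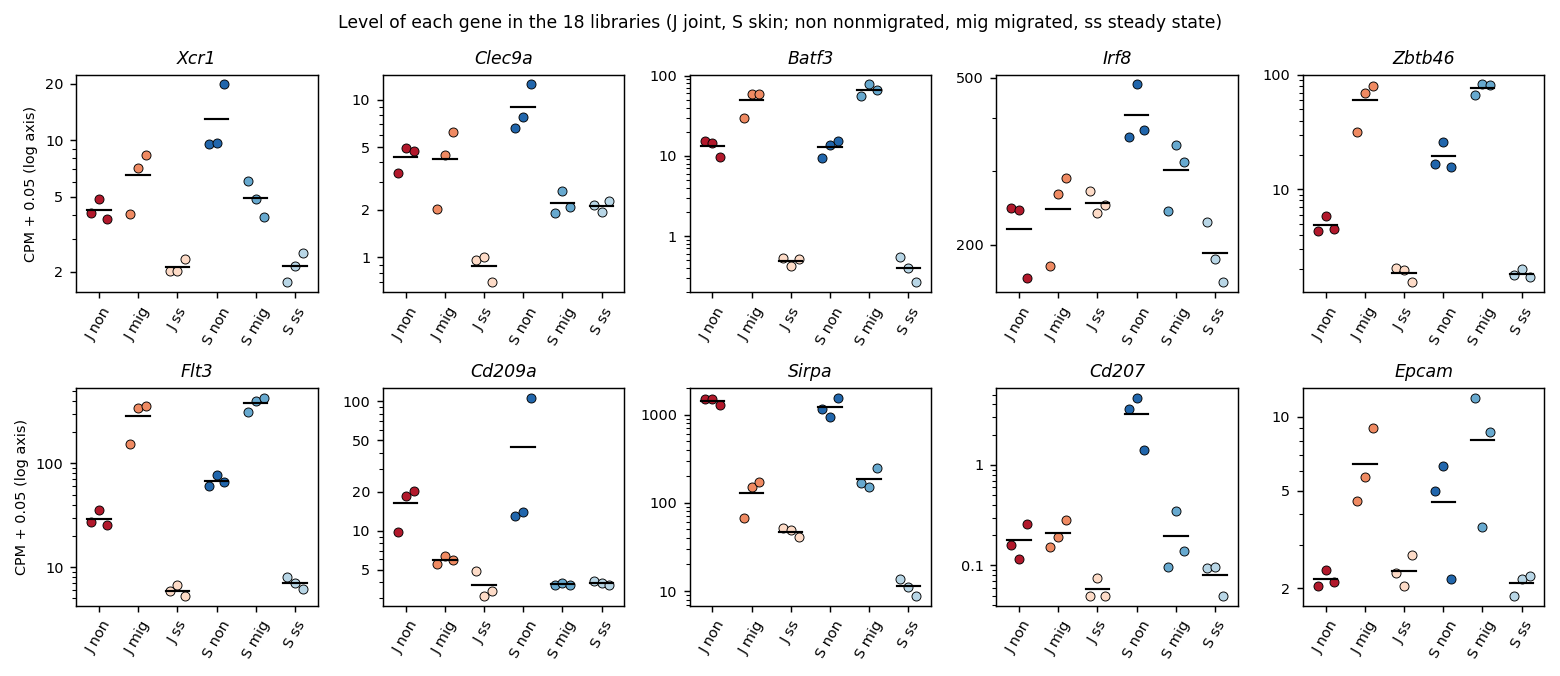
Level of each of the 10 genes in all 18 libraries, in CPM + 0.05 on a log axis with its own range in each panel; each point is a library, each horizontal line the mean of 3, and groups are joint (J) or skin (S) nonmigrated, migrated or steady state (ss). Batf3, Zbtb46 and Flt3 are highest in the 6 migrated libraries, Sirpa in the 6 nonmigrated libraries, and Cd207 in skin nonmigrated cells, where replicate 3 has the lowest Cd207 (1.35 CPM) and the highest Cd209a (106 CPM).

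The pan-cDC genes Zbtb46 and Flt3 were steeply graded, and the 4 inflamed groups stood in the same order for both. Zbtb46, a zinc finger repressor that marks committed cDCs, was at 31.7, 70.1 and 80.8 CPM in joint migrated cells and at 67.01, 82.6 and 81.1 CPM in skin migrated cells. It was at 16.6, 25.8 and 15.8 CPM in skin nonmigrated cells, at 4.27, 5.81 and 4.42 CPM in joint nonmigrated cells and at 1.49 to 2.00 CPM in all 6 steady state libraries. Only the 2 migrated groups, and the 2 steady state groups, overlapped.

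Flt3, the receptor tyrosine kinase for FLT3 ligand, was at 152, 345 and 360 CPM in joint migrated cells and at 310, 404 and 430 CPM in skin migrated cells. Skin nonmigrated cells had 59.8, 77.1 and 66.7 CPM and joint nonmigrated cells 27.0, 35.2 and 25.2 CPM, while the steady state libraries lay between 5.24 and 7.92 CPM. Joint migrated replicate 1 was the lowest library of its group in Batf3, Zbtb46 and Flt3 alike, and also in Xcr1, Clec9a, Irf8, Cd209a, Sirpa, Cd207 and Epcam. Marker lists for other cells also differed in that library. The T cell list (2249 summed CPM, against 1970 and 1588), the B cell list (1277, against 956 and 1187) and the low keratinocyte and endothelial lists were highest in it. The mast cell (33.9, against 153.5 and 275), plasmacytoid dendritic cell (216, against 228 and 258), neutrophil (39.8, against 42.5 and 104) and fibroblast lists were lowest in it. The part of these cells in the lower levels was not tested.

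Cd209a and Sirpa, the members used for cDC2 and monocyte-derived cells, were highest in tissue. Sirpa, which encodes the inhibitory receptor for CD47, was at 1512, 1509 and 1277 CPM in joint nonmigrated cells and at 1153, 948 and 1551 CPM in skin nonmigrated cells. Migrated cells had 66.5, 150 and 172 CPM from the joint and 168, 149 and 246 CPM from the skin. The steady state differed by site, with 40.7 to 52.1 CPM in the joint-draining and 8.80 to 13.8 CPM in the skin-draining node.

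Cd209a, a mouse relative of the lectin DC-SIGN, was at 9.79, 18.6 and 20.1 CPM in joint nonmigrated cells. Skin nonmigrated replicates 1 and 2 had 12.8 and 13.9 CPM, but replicate 3 had 106 CPM, so the group mean of 44.4 ± 53.7 CPM (SD, n = 3) describes none of the 3. In that same library the macrophage and monocyte list summed to 8022 CPM (3360 and 4726 in the others), the mast cell list to 354 CPM (56.8 and 65.3), the fibroblast list to 255 CPM (59.97 and 62.4) and the T cell list to 355 CPM (881 and 987), and their part in its Cd209a was not tested. All 12 node libraries lay between 3.09 and 6.38 CPM, with joint migrated cells (5.52 to 6.38 CPM) above the other 3 node groups without overlap.

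Cd207 and Epcam, the Langerhans cell members, did not run together. Cd207, the lectin of Birbeck granules, was at 3.54, 4.62 and 1.35 CPM in skin nonmigrated cells and at or under 0.300 CPM in the other 15 libraries. It had at most 3 counts, the floor used here, in all 6 steady state libraries, in 2 of 3 skin migrated libraries and in 1 joint nonmigrated library. Keratinocyte markers were in the same 3 libraries: the list of 8 keratins and related genes summed to 161, 324 and 28.1 CPM in skin nonmigrated replicates 1 to 3, in the same order as Cd207, and to at most 2.29 CPM in the other 15 libraries, where Krt14 was at or below the floor. Their part in the Cd207 level was not tested.

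Epcam was at 11.9, 3.50 and 8.64 CPM in skin migrated cells and at 4.50, 5.63 and 8.92 CPM in joint migrated cells, against 4.92, 6.25 and 2.13 CPM in skin nonmigrated cells. Joint nonmigrated and steady state libraries all lay between 1.82 and 2.68 CPM. Each group overlapped the next in the order of means. The count ratio of Epcam to Cd207 was 1.35 to 1.58 in skin nonmigrated cells and 37.8 to 43.8 in joint migrated cells, the other group in which both genes exceeded the floor in every library.

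Compared per length (RPKM, the CPM divided by the kilobases of exon), the members took different ranks in each group. In joint nonmigrated cells Sirpa led with 292 ± 27.4 RPKM (SD, n = 3), followed by Irf8 with 30.8 ± 6.31 RPKM (SD, n = 3), while Zbtb46 was at 0.568 ± 0.100 RPKM (SD, n = 3). In joint migrated cells Flt3 (46.3 ± 18.8 RPKM, SD, n = 3), Irf8 (34.5 ± 8.29), Batf3 (30.8 ± 10.7) and Sirpa (26.3 ± 11.3) were within their spread of each other. Skin migrated cells had the same 4 genes in front, Flt3 at 61.7 ± 10.2 RPKM (SD, n = 3) and Sirpa at 38.2 ± 10.4 RPKM (SD, n = 3). Steady state cells had Irf8 in front at both sites (35.6 ± 2.24 and 27.1 ± 4.57 RPKM, SD, n = 3), where B cell markers were also highest.

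To ask which genes differ between cells that left an inflamed tissue and cells that stayed, migrated cells were compared with nonmigrated cells at each site. All migrated libraries came from nodes and all nonmigrated libraries from joint or ear. Leaving the tissue and the organ of recovery therefore cannot be told apart. The study also names adaptation to a new tissue as a possible source of such differences. In the joint, Zbtb46, Flt3 and Batf3 rose in migrated cells and Sirpa fell, 4 of 10 members in all. The changes were 3.66 ± 0.336 (SE) for Zbtb46 (12.6-fold, adjusted p = 4.81e-06), 3.29 ± 0.300 for Flt3 (9.82-fold, adjusted p = 4.6e-06), 1.91 ± 0.287 for Batf3 (3.77-fold, adjusted p = 0.00017) and -3.47 ± 0.344 for Sirpa (11.1-fold lower, adjusted p = 8.19e-06). Among all 16777 genes tested, 8.8% were called higher and 12.6% lower, and the median log2 change was 0.45 over the members and 0.02 over all genes. Batf3 sat close to the threshold: without joint nonmigrated replicate 2 its adjusted p was 0.00103, and without replicate 3 it was 0.00102.

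In the skin the same 3 genes rose, Batf3 by 2.37 ± 0.295 (SE, adjusted p = 4.36e-05), Flt3 by 2.48 ± 0.290 (adjusted p = 2.73e-05) and Zbtb46 by 1.98 ± 0.312 (adjusted p = 0.000234). Sirpa fell by 2.70 ± 0.332 on the log2 scale (adjusted p = 4.04e-05) and Cd207 fell by 4.44 ± 0.685 (adjusted p = 0.000204), which makes 5 of 10 members called against a background of 8.49% higher and 12.4% lower. The Cd207 fold is set against skin migrated libraries with 1, 6 and 2 counts, near the floor of 3, so its size is uncertain. The median log2 change was -0.93 over the members and 0.01 over all genes. Clec9a (-2.04 ± 0.399, adjusted p = 0.00106), Cd209a (-3.55 ± 0.722, adjusted p = 0.0014) and Xcr1 (-1.41 ± 0.342, adjusted p = 0.00413) had lower values in migrated skin cells but missed the threshold. The Zbtb46 call was lost without skin nonmigrated replicate 1 (adjusted p = 0.00176), skin nonmigrated replicate 3 (0.00105), skin migrated replicate 2 (0.00106) or skin migrated replicate 3 (0.00107), and the Cd207 call without skin migrated replicate 1 (0.00132) or 3 (0.00172).

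Cd209a in skin depended most on a single library. Without skin nonmigrated replicate 3 its log2 change was -1.82 in place of -3.55 and passed the test (adjusted p = 0.000176). It also passed without replicate 1 (-3.99, adjusted p = 0.000517) or replicate 2 (-3.97, adjusted p = 0.000452) of that group. Markers of other cells moved in the same direction as Sirpa at both sites. The macrophage and monocyte list summed to 7875 to 10910 CPM in joint nonmigrated cells and 287 to 416 CPM in joint migrated cells, and to 3360 to 8022 CPM and 378 to 528 CPM in the skin groups. The neutrophil list summed to 5639 to 17280 CPM and 39.8 to 104 CPM in the joint groups, and to 1720 to 2854 CPM and 17.7 to 34.3 CPM in the skin groups. The part of these cells in the Sirpa difference was not tested.

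**Figure D2:**
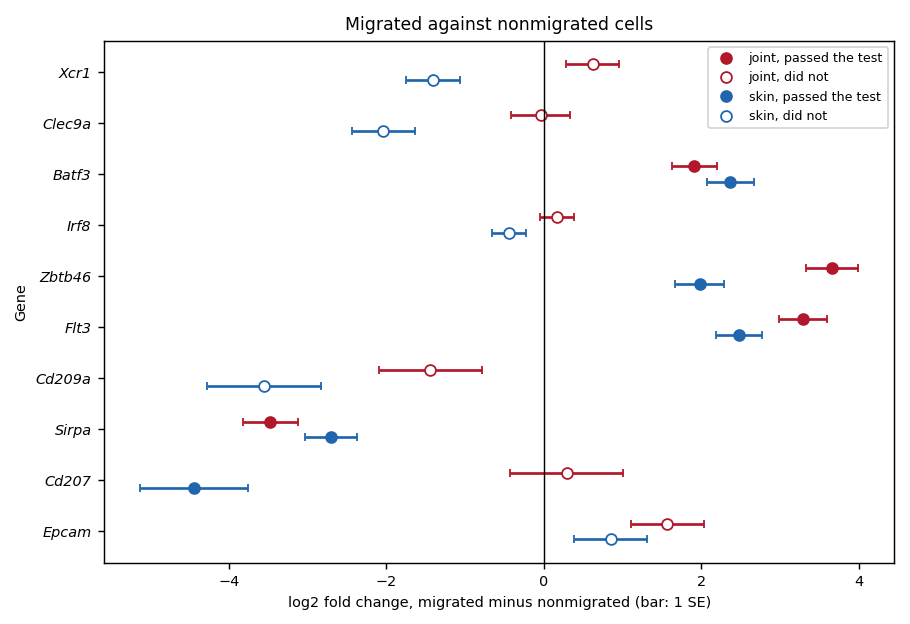
Log2 fold change of each gene, migrated minus nonmigrated, in joint (red) and skin (blue), with bars of 1 SE; filled points passed the test and open points did not. Batf3, Zbtb46 and Flt3 lie to the right and Sirpa to the left at both sites, while Xcr1 is at 0.62 in joint and -1.41 in skin.

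The wider lists showed which other cDC genes went with the members. Of 12 further cDC1 genes, 2 rose and 3 fell in joint migrated cells, where the integrin Itgae rose by 3.84 ± 0.384 (SE, adjusted p = 8.72e-06) and Cd8a by 3.91 ± 0.398 (adjusted p = 9.89e-06), while Ppt1 (-1.40 ± 0.165) and Naaa (-3.86 ± 0.479) fell. Cd8a and Itgae are also T cell genes, and the T cell list summed to 1588 to 2249 CPM in joint migrated cells and 219 to 382.5 CPM in joint nonmigrated cells. In the skin 1 of the 12 rose and 5 fell, among them Gcsam (-2.77 ± 0.315), Ppt1 (-1.43 ± 0.166) and Naaa (-3.56 ± 0.475), with Cd8a higher by 2.80 ± 0.378. The list's median was 0.58 in joint and -1.27 in skin, against 0.02 and 0.01 over all genes.

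Of 12 further cDC2 genes, 2 rose and 9 fell in joint migrated cells and 2 rose and 8 fell in skin migrated cells, with medians of -2.82 and -1.76. Irf4, the factor cDC2 depend on, rose by 1.06 ± 0.203 in joint and 2.30 ± 0.212 in skin. The integrin Itgam fell, with log2 changes of -6.15 ± 0.278 and -5.39 ± 0.270, as did Cd300a (-4.65 ± 0.350 and -3.93 ± 0.344) and Notch2 (-1.23 ± 0.103 and -1.45 ± 0.104). Of 12 pan-cDC genes, 2 rose and 5 fell at each site (medians -0.77 and -1.18): Dpp4 rose by 2.86 ± 0.274 and 2.65 ± 0.272, and Csf2ra, a receptor chain for GM-CSF, fell (-2.93 ± 0.270 and -2.39 ± 0.264). Most of the pan-cDC list did not rise with Zbtb46 and Flt3. The macrophage and monocyte list and the neutrophil list were also lower in migrated cells at both sites. The part of these cells in the falls of the cDC2 and pan-cDC genes was not tested. The T cell list was higher in migrated cells at both sites, at 1588 to 2249 against 219 to 382.5 summed CPM in joint and 1829 to 1976 against 355 to 987 in skin. Its part in the rises of Irf4 and Dpp4 was not tested.

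Among the dendritic cell lists, mature migratory cDC genes had the highest medians, 3.45 in joint and 2.16 in skin, with 9 and 6 of 11 tested genes higher and 0 lower. Fscn1, the actin-bundling fascin, rose by 6.77 ± 0.614 (SE) in joint and 3.31 ± 0.521 in skin, and Cacnb3 by 6.05 ± 0.533 and 3.02 ± 0.461. The growth factor list, which holds the ligands and receptors that support dendritic cells, had 1 gene higher and 4 lower in joint (median -0.89) and 0 higher and 6 lower in skin (median -1.32). Flt3l, the ligand of FLT3, rose by 1.60 ± 0.174 in joint migrated cells, and Csf1r fell at both sites (-6.01 ± 0.453 and -4.53 ± 0.423). The part of T cells in the Flt3l rise was not tested. Among 15 BATF and IRF family genes, 2 rose and 5 fell in joint (median -0.41) and 1 rose and 5 fell in skin (median -0.82), with Batf2 lower at -3.14 ± 0.339 and -3.48 ± 0.342, opposite in sign to Batf3. Of 8 Langerhans cell genes tested, 2 rose and 2 fell in joint and 1 rose and 3 fell in skin, where Cdh1, which encodes the adhesion molecule E-cadherin, fell by 4.35 ± 0.309. Sirpb1a, a relative of Sirpa, fell (-3.76 ± 0.459 and -2.69 ± 0.447), while the SIRPα ligand gene Cd47 and the XCR1 ligand gene Xcl1 did not pass the test at either site.

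Within a library, the members can be set against Zbtb46 as a ratio of counts, in which gene length cancels between groups. Flt3 stayed at 2.88 to 6.33 counts per Zbtb46 count in all 18 libraries. Xcr1 was at 0.829 to 0.949 per Zbtb46 count in joint nonmigrated cells and 0.101 to 0.126 in joint migrated cells, and at 0.374 to 1.25 and 0.0475 to 0.0896 in the skin groups. Clec9a was at 0.789 to 1.06 and 0.0621 to 0.0764 in the joint groups and 0.299 to 0.786 and 0.0251 to 0.0314 in the skin groups. Both receptors were lower relative to Zbtb46 in migrated than in nonmigrated cells at both sites, without overlap. The same held for Irf8, at 37.6 to 57.2 and 3.57 to 5.60 in the joint groups and 18.7 to 23.8 and 3.58 to 4.18 in the skin groups. It also held for Cd209a, at 2.295 to 4.55 and 0.0732 to 0.174 in joint and 0.540 to 6.74 and 0.0465 to 0.0556 in skin. The denominator Zbtb46 itself rose in migrated cells at both sites.

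The factor Batf3 gave another picture. It was at 2.163 to 3.615 per Zbtb46 count in joint nonmigrated cells, at 0.533 to 0.957 in skin nonmigrated cells and at 0.729 to 0.938 in all 6 migrated libraries, so the skin groups overlapped and the joint groups did not. Sirpa was at 260 to 354 in joint nonmigrated cells, at 36.8 to 98.2 in skin nonmigrated cells and at 1.81 to 3.03 in the 6 migrated libraries. These ratios are descriptions without a test.

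**Figure D3:**
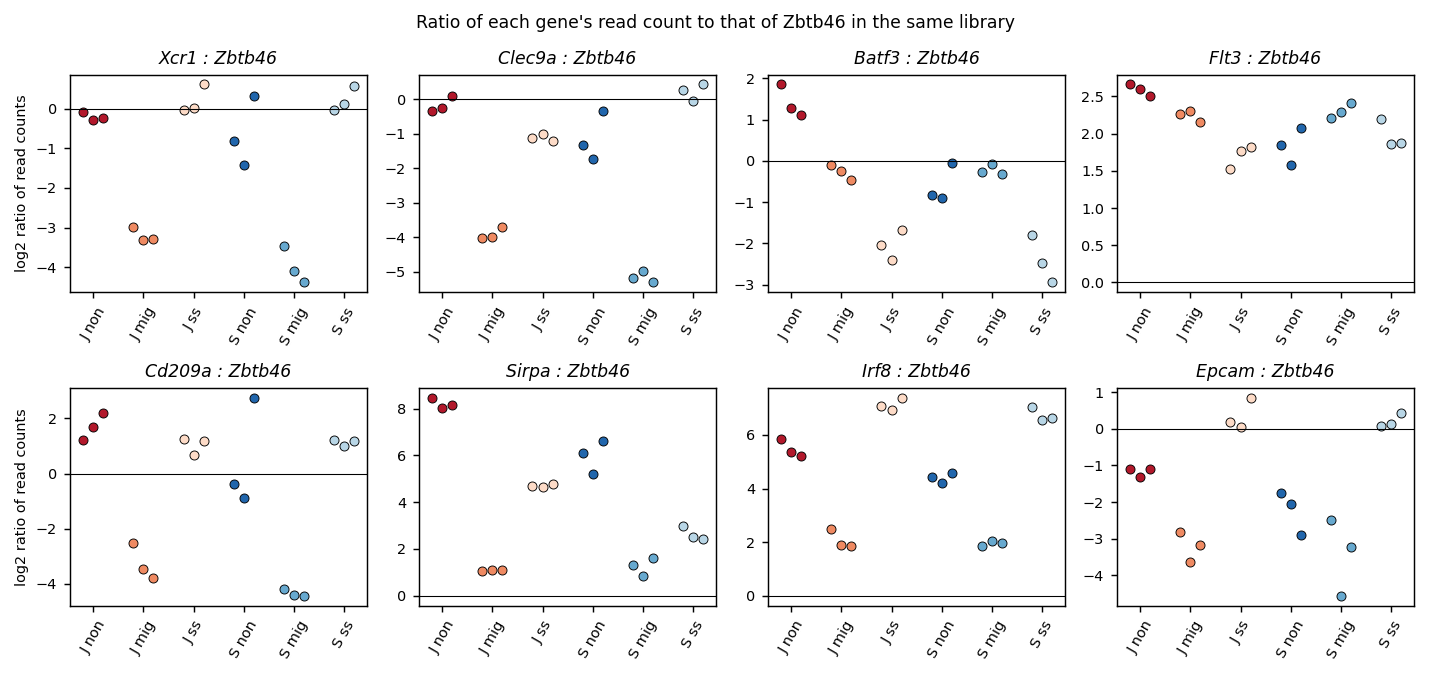
Log2 ratio of each gene's read count to the Zbtb46 count of the same library, for 8 genes (y axis, own range in each panel) in the 6 groups of 3 libraries. Cd207 is left out because in most groups it did not exceed the floor in every library. Xcr1, Clec9a, Irf8, Cd209a and Sirpa are lowest in the 6 migrated libraries, while Flt3 varies least.

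Nonmigrated cells of the joint and the skin were compared to ask what differs between inflamed sites. Cd207 was the 1 member of 10 that passed, lower in joint with a log2 difference of -4.57 ± 0.658 (SE, 23.7-fold, adjusted p = 0.00072), where 1.14% of all genes were called higher and 1.9% lower. Cd207 passed the filter on low counts only through skin nonmigrated cells, with 59, 79 and 26 counts. Joint nonmigrated libraries held 4, 2 and 7 counts, near the floor of 3, so the size of this fold is uncertain. The call is therefore a description and no independent support. The median log2 difference, joint minus skin, was -1.14 over the members and 0.01 over all genes. Zbtb46 (-2.01 ± 0.322, adjusted p = 0.00125), Xcr1 (-1.63 ± 0.341, adjusted p = 0.0054), Flt3 (-1.22 ± 0.280, adjusted p = 0.00856), Irf8 (-0.91 ± 0.220, adjusted p = 0.011) and Clec9a (-1.05 ± 0.379, adjusted p = 0.058) had lower values in joint and missed the threshold. Batf3 (0.03 ± 0.286) and Sirpa (0.23 ± 0.312) were close to 0.

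The Cd207 call was lost without any 1 of joint nonmigrated replicates 1 (adjusted p = 0.00522), 2 (0.00532) and 3 (0.00277) or skin nonmigrated replicates 1 (0.00346) and 2 (0.00307). Without skin nonmigrated replicate 3, Zbtb46 passed as well (-2.13, adjusted p = 0.000774), and the Cd209a difference changed from -1.46 to 0.27. Among the lists, 3 of 12 cDC1 genes were lower in joint (Gcsam -2.69 ± 0.309, Itgae -2.96 ± 0.371 and Id2, a factor needed by cDC1, -1.79 ± 0.233), as were 2 of 11 mature migratory genes (Cacnb3 -3.56 ± 0.475 and Fscn1 -3.88 ± 0.537). Klf4 was the 1 cDC2 gene that differed, higher in joint by 2.59 ± 0.285, and 1 of 8 Langerhans genes was higher and 3 were lower in joint, among them Cdh1 (-3.17 ± 0.289). The neutrophil list was higher in joint (5639 to 17280 against 1720 to 2854 summed CPM) and the keratinocyte list lower (0.498 to 2.02 against 28.1 to 324), and the part of these cells in the differences was not tested.

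Migrated cells of the joint and the skin did not differ in any member by edgeR's test at the threshold: 0 of 10 passed, with 0% of all genes called higher and 0% lower. DESeq2 also called 0 members. By edgeR 2770 of the 16777 genes tested had an unadjusted p under 0.05, among them 1 member, Clec9a. Its difference was 0.95 ± 0.390 (SE, adjusted p = 0.251), an interval of 0.17 to 1.73 at 2 SE. For Zbtb46 the interval at 2 SE was -0.93 to 0.26, for Flt3 -0.96 to 0.14, for Batf3 -0.98 to 0.13, for Sirpa -1.16 to 0.09 and for Xcr1 -0.27 to 1.08. The Clec9a interval did not include 0, and the other 5 of these reached near or past 1 on 1 side only. The intervals of Cd209a (-0.71 to 2.01), Epcam (-1.23 to 0.56) and Cd207 (-1.36 to 1.69) were wider. That of Irf8 was -0.74 to 0.14.

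Whether the difference between migrated and nonmigrated cells was unlike at the 2 sites was tested as an interaction, the joint change minus the skin change. No member passed at the threshold in edgeR (0 of 10, with 0.0656% of all genes called higher and 0.0536% lower). An unadjusted p under 0.05 was seen in 5 members and in 4407 of the 16777 genes tested. DESeq2 called 2 members, and its share over all genes is not given here. The largest values were those of Cd207 (4.74 ± 0.997, SE, adjusted p = 0.0161), Cd209a (2.10 ± 0.939, adjusted p = 0.182), Xcr1 (2.03 ± 0.477, adjusted p = 0.0263), Clec9a (2.00 ± 0.544, adjusted p = 0.0445) and Zbtb46 (1.67 ± 0.434, adjusted p = 0.0382). The Cd207 value sets skin nonmigrated cells (59, 79 and 26 counts) beside the other inflamed groups, where no library exceeded 11 counts, so its size is uncertain. The Cd209a value rested on skin nonmigrated replicate 3: it was 0.37 without that library (adjusted p = 0.481) and reached 2.54 at most without any other. Each of the 5 was positive, and for Zbtb46 the lower nonmigrated level in joint (4.83 ± 0.852 against 19.4 ± 5.55 CPM, SD, n = 3) stood beside similar migrated levels (60.9 ± 25.8 and 76.9 ± 8.61 CPM, SD, n = 3).

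Node cells of inflamed mice were compared with those of steady state mice to ask how the sorted node cells differ with inflammation. If the steady state cells were not gated as Kaede red+, these values set migrated cells beside other node cells, and that difference in the sort cannot be told apart from inflammation. In the joint-draining node 6 of the 9 members tested rose and 0 fell, while 12.4% of 17107 genes were called higher and 3.5% lower, and the median log2 change was 1.66 over the members and -0.02 over all genes. Cd207 was not among the 17107 genes, since its counts were below the filter. Batf3 rose by 6.82 ± 0.322 (SE, 113-fold, adjusted p = 4.76e-09), Flt3 by 5.64 ± 0.302 (49.8-fold, adjusted p = 1.22e-08) and Zbtb46 by 5.10 ± 0.303 (34.4-fold, adjusted p = 2.89e-08). Clec9a rose by 2.35 ± 0.353 (adjusted p = 0.000102), Xcr1 by 1.66 ± 0.268 (adjusted p = 0.000184) and Sirpa by 1.49 ± 0.288 (adjusted p = 0.000799). Epcam (1.48 ± 0.361, adjusted p = 0.00392) and Cd209a (0.69 ± 0.180, adjusted p = 0.00589) missed the threshold, and Irf8 was at -0.01 ± 0.178.

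The smaller calls were near the threshold. The Sirpa call was lost without joint migrated replicate 2 or 3 or without any 1 joint steady state replicate (adjusted p from 0.00312 to 0.00581), the Xcr1 call without joint migrated replicate 2 (0.00105), joint steady state replicate 1 (0.00138) or 2 (0.00159), and the Clec9a call without joint steady state replicate 3 (0.00102). The B cell list summed to 956 to 1277 CPM in joint migrated cells and 5393 to 5657 CPM in the joint steady state, and the plasmacytoid dendritic cell list to 216 to 258 and 503 to 555 CPM. Neither list's part in these changes was tested.

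In the skin-draining node 5 of 9 members rose and 0 fell, with 16.6% of genes called higher and 8.51% lower and a median log2 change of 2.00 over the members and 0.00 over all genes. Batf3 rose by 7.53 ± 0.336 (SE, 185-fold, adjusted p = 1.47e-09), Flt3 by 5.79 ± 0.304 (55.5-fold, adjusted p = 4.74e-09), Zbtb46 by 5.46 ± 0.309 (44.1-fold, adjusted p = 8.89e-09), Sirpa by 4.08 ± 0.323 (17.0-fold, adjusted p = 1.6e-07) and Epcam by 2.00 ± 0.372 (4.00-fold, adjusted p = 0.000378). Xcr1 (1.25 ± 0.274, adjusted p = 0.00129) missed the threshold, and Clec9a was at 0.10 ± 0.347 with an interval of -0.59 to 0.79 at 2 SE. The Epcam call was lost without skin migrated replicate 1 (adjusted p = 0.00257) or 3 (0.00188), or without any 1 skin steady state replicate (0.00216 to 0.00309). The B cell list summed to 168 to 288 CPM in skin migrated cells and 3665 to 4987 CPM in the skin steady state, and its part was not tested.

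**Figure D4:**
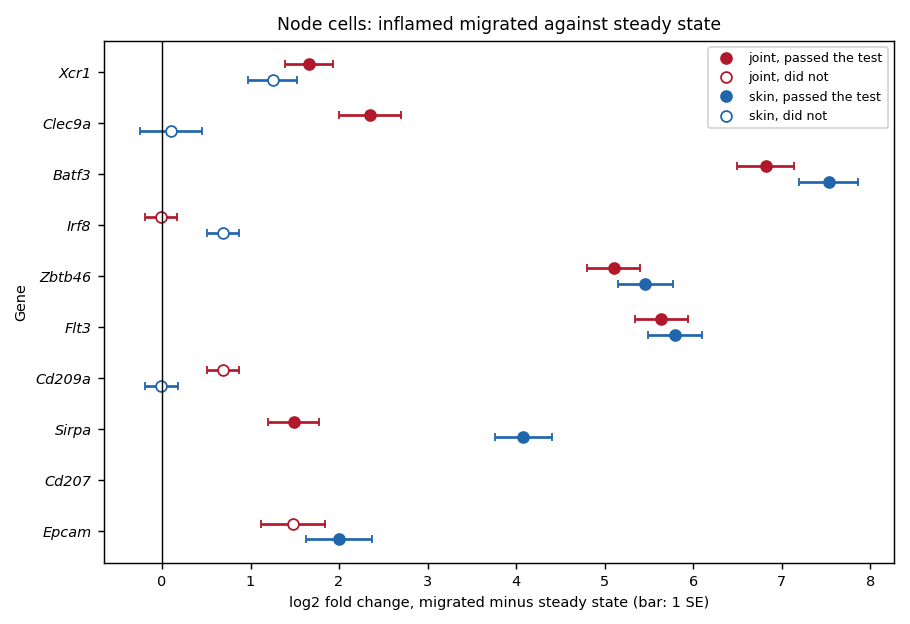
Log2 fold change of each gene in node cells, inflamed migrated minus steady state, in joint (red) and skin (blue), with bars of 1 SE; filled points passed the test, open points did not, and Cd207 has no point because it was not tested. Batf3, Flt3 and Zbtb46 are above 5 at both sites, and Irf8 is between -0.01 and 0.69.

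Among the dendritic cell lists in the nodes, mature migratory genes had the highest medians: 10 of 11 rose at each site, with medians of 6.18 in joint and 7.00 in skin. Of the 12 cDC1 genes, 6 rose and 1 fell in joint (median 1.01) and 4 rose and 1 fell in skin (median 0.53). In joint and skin respectively, Tlr11 rose by 4.85 ± 0.313 (SE) and 5.30 ± 0.307, Id2 by 2.67 ± 0.181 and 3.20 ± 0.185 and Cadm1 by 2.79 ± 0.400 and 2.05 ± 0.413. Wdfy4, a gene needed for cross-presentation, fell (-1.56 ± 0.154 and -2.98 ± 0.164). Of the 12 cDC2 genes, 4 rose in joint (median 0.84) and 7 in skin (median 2.73), with Esam higher by 7.12 ± 0.450 and 7.38 ± 0.460 and Mgl2 by 2.88 ± 0.369 and 3.49 ± 0.366. Of the 12 pan-cDC genes, 4 rose and 2 fell in joint and 7 rose and 1 fell in skin, and Itgax, which encodes CD11c, rose by 2.50 ± 0.131 and 2.59 ± 0.132. Xcl1, the ligand of XCR1, rose by 2.07 ± 0.301 in joint, and in skin its change of 1.31 ± 0.297 missed the threshold (adjusted p = 0.00172). Batf2 rose by 2.55 ± 0.405 and 5.97 ± 0.513. The B cell list was lower in migrated than in steady state cells of both nodes, and its part in the fall of Wdfy4 was not tested.

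At steady state the joint-draining and skin-draining nodes differed in Sirpa, the 1 member of 9 that passed, higher in joint by 2.05 ± 0.300 (SE, 4.15-fold, adjusted p = 0.000755), where 1.4% of genes were called higher and 0.0409% lower. The call was lost without any 1 of the 6 libraries, with adjusted p from 0.00295 to 0.0086 and the log2 difference from 1.91 to 2.22. Itgam (2.79 ± 0.219), Csf1r (2.66 ± 0.310) and Sirpb1a (3.24 ± 0.341) were also higher in joint, and the neutrophil list summed to 450 to 880 CPM there against 13.3 to 21.03 CPM in skin, a part not tested. Clec9a was lower in joint without passing (-1.31 ± 0.354, adjusted p = 0.0389). The titles name PBS for the joint and naive for the skin, so site and treatment cannot be told apart in this comparison.

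The difference between sites in the node response, joint minus skin, passed in 0 of 9 members by edgeR, with 0.193% of genes called higher and 0.696% lower. Of the members, 4 had an unadjusted p under 0.05, as did 4635 of the 17107 genes tested. DESeq2 called 2 members, and its share over all genes is not given here. Sirpa was at -2.60 ± 0.410 (SE, adjusted p = 0.00184) and Clec9a at 2.25 ± 0.491 (adjusted p = 0.0122). The baselines differ in title, PBS in joint and naive in skin, so these values cannot be told apart from that difference.

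The plot of marker lists gives the other cells that moved with the groups. Ptprc, the gene for CD45 on which cells were sorted, was at 1155 to 2530 CPM in every library.

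**Figure D5:**
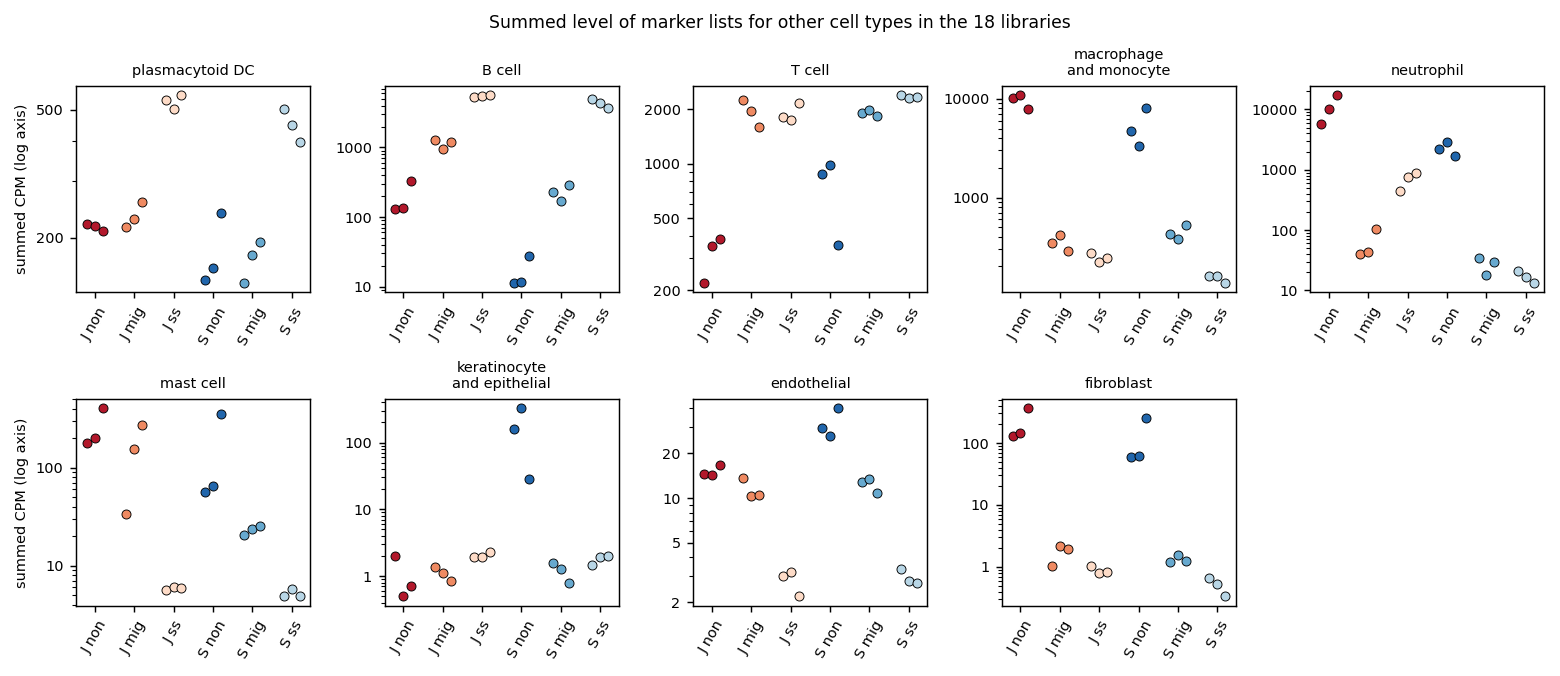
Summed CPM (log axis, own range in each panel) of marker lists for 9 other cell types in the 18 libraries, 3 per group, joint (J) and skin (S) nonmigrated, migrated and steady state (ss). The B cell list is highest in the 6 steady state libraries (3665 to 5657 CPM), the macrophage and neutrophil lists in the 6 nonmigrated libraries, and the keratinocyte list in skin nonmigrated cells.

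Genes whose pattern over the 18 libraries was most like each member were found by Pearson correlation of log2(CPM + 1) among 14381 protein-coding genes. The 18 libraries form 6 groups and share their scaling, so these values describe the groups' order and carry no test. Zbtb46 ran with Cacnb3 (r = 0.995), Fscn1 (0.994) and Arhgap28 (0.994), Flt3 with Arhgef40 (0.994), Tspan33 (0.993) and Strip2 (0.992), and Batf3 with Nostrin (0.995), Fut4 (0.993) and Ttyh2 (0.989). Xcr1 ran with Gpr33 (0.941), Sept3 (0.939) and Snx22 (0.919), and Clec9a with Sept3 (0.937), Kif5a (0.921) and Ank1 (0.895), so Sept3 was near both cDC1 receptors.

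For Sirpa the nearest were Ltbr (0.997), Olfm1 (0.995) and Tyrobp (0.995), and for Cd209a Lhfp (0.968), Tbx15 (0.958) and Ldb2 (0.958). Cd207 ran with Krt79 (0.990), Krt14 (0.990) and Aldh3a1 (0.989), of which the first 2 are keratins, and Epcam with Dsg2 (0.972), Magi1 (0.937) and Large2 (0.935). Irf8 had the weakest, Tjap1 (0.889), Irf1 (0.871) and Tor1aip2 (0.870). Between members, Zbtb46 and Flt3 were at 0.990, Batf3 and Flt3 at 0.972 and Xcr1 and Clec9a at 0.877, while Batf3 was at 0.640 with Xcr1 and 0.467 with Clec9a over the same 18 libraries.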

How the data were processed

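Sorted leukocytes were measured by bulk RNA-seq in 18 libraries, 6 groups of 3, grouped from the labels. Per the methods of the study, the authors trimmed paired reads with Trim-Galore!, aligned them to mm10 with TopHat2 and Ensembl 87, and deposited raw HTSeq read counts per gene, the unit used here. Rows that name no gene (11.3% to 15.1% of reads) were left out. Symbols, lengths and positions came from GENCODE M21 (49326 of 49585 genes matched).

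Counts were tested with edgeR 4.0.16 in R 4.3.3 (TMM, filterByExpr with a minimum count of 10, quasi-likelihood F test, Benjamini-Hochberg over all genes), with 12 libraries per fit: the 4 inflamed groups (16777 genes) or the 4 node groups (17107 genes). SE was taken as the size of the log2 change over the root of F. A gene was called at adjusted p under 0.001 and a log2 fold change beyond 1. The scripts were tested on simulated data. CPM used TMM factors of all 18 libraries, and 3 counts (0.0616 to 0.18 CPM) were the floor, which covers counting error only. Alternatives were an adjusted p of 0.05, DESeq2 1.42.0 size factors or Wald test, no filter, other sample sets, a replicate block, thinning to 19239531 counts and leaving out each library.

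The members and gene lists were chosen with earlier results of these data known, so none is independent support. Named list genes are up to 4 called genes of smallest adjusted p per list and comparison, taken further where the text follows a gene named in another comparison. Replicates are pools of mice, and p-values measure the spread between pools. Within groups, log2(CPM + 1) correlated across genes at 0.972 to 0.998, and no pair of replicates agreed within sampling noise. The sources used here do not say whether counting used strand in keeping with the kit.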

Additional observations from a re-analysis of the deposited data

Results flagged for a closer look

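Altogether 6 differences between the 2 sites reached an adjusted p under 0.05 by edgeR's interaction test with a size beyond 1 on the log2 scale, and each missed the threshold of 0.001 used for calls. In the change on migration, joint minus skin, these were Cd207 (4.74 ± 0.997, SE, adjusted p = 0.0161), Xcr1 (2.03 ± 0.477, adjusted p = 0.0263), Zbtb46 (1.67 ± 0.434, adjusted p = 0.0382) and Clec9a (2.00 ± 0.544, adjusted p = 0.0445). Xcr1 had a log2 change of 0.62 in joint and -1.41 in skin, and Clec9a of -0.04 and -2.04. Cd207 was near the floor in every inflamed group except skin nonmigrated cells, so the size of its difference is uncertain. Over the 12 fits that leave out 1 library, the Xcr1 difference ran from 1.59 to 2.30, the Clec9a difference from 1.64 to 2.37, the Zbtb46 difference from 1.41 to 2.00 and the Cd207 difference from 4.32 to 5.76.

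In the change of node cells with inflammation, joint minus skin, Sirpa (-2.60 ± 0.410, SE, adjusted p = 0.00184) and Clec9a (2.25 ± 0.491, adjusted p = 0.0122) differed. Sirpa rose at both sites, by 1.49 in joint and 4.08 in skin, from a steady state of 47.2 ± 5.89 CPM (SD, n = 3) in joint and 11.3 ± 2.51 CPM (SD, n = 3) in skin. Clec9a changed by 2.35 in joint and 0.10 in skin. Site cannot be told apart here from the PBS (joint) and naive (skin) baselines.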

How the results depend on the processing

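Across all comparisons the log2 changes of the members were recomputed 1297 times, of which 1172 kept their direction and side of the threshold, 46 newly passed, 49 no longer passed and 30 changed sign. Batf3, Zbtb46 and Flt3 in both node comparisons, Zbtb46, Flt3 and Sirpa in joint migration and Batf3, Flt3 and Sirpa in skin migration kept their calls in every alternative run.

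Of members called, skin migration gave 5, and 8 at an adjusted p of 0.05, 8 with all 18 libraries fitted together and 3 to 6 without 1 library (3 without skin migrated replicate 3). Joint against skin nonmigrated gave 1, and 4 at 0.05, 4 by DESeq2, 2 with no filter, 0 with the 2 groups alone, 3 with all 18 and 0 to 2 without 1 library (2 without skin nonmigrated replicate 3). The migration interaction gave 0, and 4 at 0.05 and 2 by DESeq2. Joint migrated against steady state gave 6, and 3 with the 2 groups alone. The steady states gave 1, and 2 at 0.05, 0 after thinning and 0 without any 1 library. The node interaction gave 0, and 2 at 0.05, by DESeq2 or with no filter, and 0 to 2 without 1 library (2 without joint migrated replicate 1). Calls over all genes under the same setting are given below for only some of these runs. The member counts describe how calls depend on the setting, and do not show more calls than among all genes. The cause of these changes was not tested.

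Replicate numbers were not taken as pairs, since deviations of same-numbered libraries correlated at 0.021 to 0.254 in joint migration and 0.0735 to 0.173 in skin migration. With a replicate block, members called were 3 in joint migration, 5 in skin migration, 0 between nonmigrated groups, 3 and 4 in the joint and skin nodes and 0 between steady states. Calls over all genes with the block are given below only between nonmigrated groups, so the other counts have no background beside them.

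Over all genes, calls at 0.05 against 0.001 were 5757 and 3586 in joint migration, 5940 and 3508 in skin migration and 2400 and 511 between nonmigrated groups, where DESeq2 called 1574, the replicate block 204, the 2 groups alone 0 and the fit without skin nonmigrated replicate 3 called 1372. They were 191 and 0 between migrated groups, 1029 and 20 for the migration interaction, 4143 and 2714 in the joint node, 665 and 246 between steady states and 1045 and 152 for the node interaction.

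Changes of sign were confined to values near 0 or to single libraries. After thinning, Irf8 in the joint node was 0.01, and between steady states Xcr1 was 0.02 (0.00 with no filter) and Batf3 -0.02. Without 1 library, the ranges were -0.41 to 0.31 for Clec9a and -0.07 to 0.80 for Cd207 in joint migration, -0.14 to 0.22 for Batf3 and -1.90 to 0.27 for Cd209a between nonmigrated groups, and -0.23 to 1.2 for Cd207 and -0.67 to 0.07 for Epcam between migrated groups. In the nodes they were -0.15 to 0.14 for Irf8 (joint), -0.09 to 0.16 for Clec9a (skin), -0.30 to 0.15 for the Flt3 interaction, and between steady states -0.15 to 0.11 for Xcr1, -0.08 to 0.14 for Zbtb46 and -0.29 to 0.05 for Cd209a. Cd207 had at most 3 counts in 9 libraries, where its level could not be told from the floor.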
